A study of Mus musculus with 8 samples.

Results

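The genes described are 10 chemokine ligands that macrophages make, Ccl2, Ccl3, Ccl4, Ccl5, Ccl6, Ccl7, Ccl9, Ccl12, Cxcl10 and Cxcl16, chosen by name from the 24940 genes of the deposited table. They were measured by RNA sequencing in bone marrow-derived macrophages of C57BL/6 mice aged 6 to 8 weeks, in 8 libraries. Marrow cells were kept in M-CSF, the growth factor of this lineage, at 5 ng/ml for 16 h, and the cells that had not attached were then grown at 30 ng/ml for 3 days. The 4 groups of 2 libraries were cells with the hairpin labelled TMBIM6sh and RANKL, cells with TMBIM6sh without RANKL, cells with the hairpin labelled NCsh and RANKL, and cells with NCsh without RANKL. RANKL, the cytokine that turns these precursors into bone-resorbing osteoclasts, was given at 100 ng/ml for 24 h, and M-CSF at 30 ng/ml was present in all groups. NCsh is not spelled out, and with a single hairpin named for either label, depletion of Tmbim6 cannot be told apart from other effects of these hairpins. The duplicates are not said to come from separate animals or cultures, so every p-value below measures only the spread between these libraries.

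Chemokines are small secreted proteins that guide leukocytes along concentration gradients through receptors coupled to G proteins. Ligands of CCR2 draw monocytes out of the marrow and into tissue, ligands of CCR1 attract monocytes, macrophages and T cells, CXCL10 attracts activated T cells through CXCR3, and CXCL16 is a membrane-bound ligand of CXCR6 that can be shed. In bone, several of these ligands are known to act on osteoclast precursors, and CCL9 with its receptor CCR1 is known in the mouse from RANKL-treated precursors. In macrophages the transcription of many chemokine genes is controlled by NF-kappaB, by interferon response factors and by AP-1.

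Of the 10 genes, 9 lie on chromosome 11 (mm10, coordinates as deposited). Ccl2 (82035577 to 82037452), Ccl7 (82045712 to 82047523) and Ccl12 (82101845 to 82103399), all on the plus strand, form one cluster. Ccl5 (83525779 to 83530518), Ccl9 (83572917 to 83578636), Ccl6 (83587886 to 83593087) and Ccl3 (83647843 to 83649378) on the minus strand and Ccl4 (83662584 to 83664683) on the plus strand form a second. Cxcl16 lies apart on the same chromosome at 70455189 to 70459984 (minus strand). Cxcl10 lies on chromosome 5 at 92346639 to 92348889 (minus strand).

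The stretches before the start site of 3 members are shown because their levels moved differently with RANKL: Cxcl10 rose in both hairpin groups, Ccl9 passed the threshold for a rise in TMBIM6sh libraries, and Ccl6 fell in both. Each is the 250 bases that end just before the start, from RefSeq (GRCm38.p6, the assembly of mm10), read 5′ to 3′ on the minus strand, at chr5:92348890-92349139 for Cxcl10, chr11:83578637-83578886 for Ccl9 and chr11:83593088-83593337 for Ccl6. Capitals mark matches on either strand to the kappaB consensus, to the interferon response core GAAANNGAAA or to the AP-1 site TGANTCA.
Cxcl10: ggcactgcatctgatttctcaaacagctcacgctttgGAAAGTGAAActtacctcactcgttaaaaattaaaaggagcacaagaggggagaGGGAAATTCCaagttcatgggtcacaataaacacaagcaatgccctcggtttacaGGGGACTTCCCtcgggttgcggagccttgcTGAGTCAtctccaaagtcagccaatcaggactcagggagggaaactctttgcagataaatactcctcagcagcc
Ccl9: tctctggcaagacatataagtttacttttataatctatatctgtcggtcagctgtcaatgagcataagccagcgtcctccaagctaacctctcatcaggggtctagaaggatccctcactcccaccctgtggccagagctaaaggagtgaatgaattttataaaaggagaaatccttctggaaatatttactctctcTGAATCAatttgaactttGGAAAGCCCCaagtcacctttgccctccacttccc
Ccl6: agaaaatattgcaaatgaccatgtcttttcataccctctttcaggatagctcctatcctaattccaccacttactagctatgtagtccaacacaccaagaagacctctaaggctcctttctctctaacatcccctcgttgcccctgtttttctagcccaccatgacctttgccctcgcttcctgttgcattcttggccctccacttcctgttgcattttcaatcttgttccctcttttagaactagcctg
The Cxcl10 window held an interferon response core 213 bases before the start, kappaB matches at 159 and, overlapping each other, at 104 and 103 bases, and an AP-1 site at 74 bases. The Ccl9 window held an AP-1 site at 53 bases and a kappaB match at 35 bases, and the Ccl6 window held none of the 3 motifs. RefSeq windows were at hand for 5 of the 10 genes, and those of Ccl3 and Ccl12 also held none. For comparison, 27025 promoter windows of the same length were searched, the first one listed per gene, with 1 chromosome left out. Of these 7.01% held the kappaB consensus, 3.04% the interferon response core and 6.87% the AP-1 site. A match describes these letters and shows no binding. No window was at hand for Cxcl16, which also rose with RANKL, or for Ccl2, Ccl4 and Ccl7, which also fell. Whether the motifs bear on the RANKL responses was not tested.

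Depth, recovered from the steps of the deposited values, was 25475000 to 28595000 tags per library, and duplicates correlated at 0.993 to 0.995 on the log2 scale across genes. Tmbim6, the gene named in the hairpin label, had 10.0 to 11.7 RPKM in the 4 TMBIM6sh libraries, against 309 to 334 RPKM in the 4 NCsh libraries. RPKM scales tags by exon length and by library depth, so that levels of different genes can be compared. All 9 macrophage markers were measured, with a summed level of 7503 to 10798 RPKM, most of it from Lyz2 at 5280 to 8071 RPKM. The lowest of them were Fcgr1 at 3.19 to 8.37, Mrc1 at 4.60 to 14.9 and Mertk at 7.75 to 19.7 RPKM. Of 7 osteoclast markers 5, Ctsk and Calcr among them, stayed under 1 RPKM in every library, while Acp5 had 50.9 to 64.7 RPKM and Dcstamp 0.262 to 1.61 RPKM. All 10 markers of T and NK cells stayed under 1 RPKM, and 6 of them were listed at 0 throughout. Of the neutrophil markers only S100a8 passed the filter, at 11.3 to 15.4 RPKM in TMBIM6sh libraries against 22.3 to 27.7 RPKM in NCsh libraries. It was called lower with TMBIM6sh with RANKL (log2 -0.85) and without it (log2 -0.86). Of 5 B cell markers only Cd79b passed the filter, at 0.329 to 1.27 RPKM in TMBIM6sh libraries against 1.03 to 3.07 RPKM in NCsh libraries. It passed only through the NCsh libraries, since of the TMBIM6sh libraries RANKL replicate 2 alone reached 1 RPKM. It was called lower with TMBIM6sh with RANKL (log2 -0.71, adjusted p = 0.0407 by limma, not called with median-ratio scaling) and without it (log2 -0.78, adjusted p = 0.0339). The summed neutrophil markers ran from 11.5 to 28.1 RPKM and the summed B cell markers from 0.435 to 3.13 RPKM over the 8 libraries. The part of either in the hairpin results below was not tested.

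Together the 10 chemokines summed to 721 and 766 RPKM in TMBIM6sh libraries with RANKL, 829 and 809 RPKM in TMBIM6sh libraries without it, 715 and 696 RPKM in NCsh libraries with RANKL, and 744 and 862 RPKM in NCsh libraries without it. Both RANKL groups thus lay below the matching groups without RANKL, while the TMBIM6sh and NCsh sums overlapped without RANKL and both TMBIM6sh sums lay above both NCsh sums with it. Ccl3 was the most abundant on this per-length scale, at a mean of 224 RPKM over the 8 libraries, followed by Ccl9 at 132, Ccl4 at 107, Cxcl16 at 105, Ccl2 at 77.0, Ccl6 at 63.7, Ccl5 at 40.4, Ccl7 at 13.7, Cxcl10 at 4.24 and Ccl12 at 1.78 RPKM. The levels of Ccl3 lay above those of every other member in all libraries, whereas every other pair of neighbours in this order overlapped across libraries. The widest spread between libraries was that of Cxcl10, whose highest level was 15.5 times its lowest, and the narrowest those of Ccl3 and Ccl9, at 1.28 times each.

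**Figure D1:**
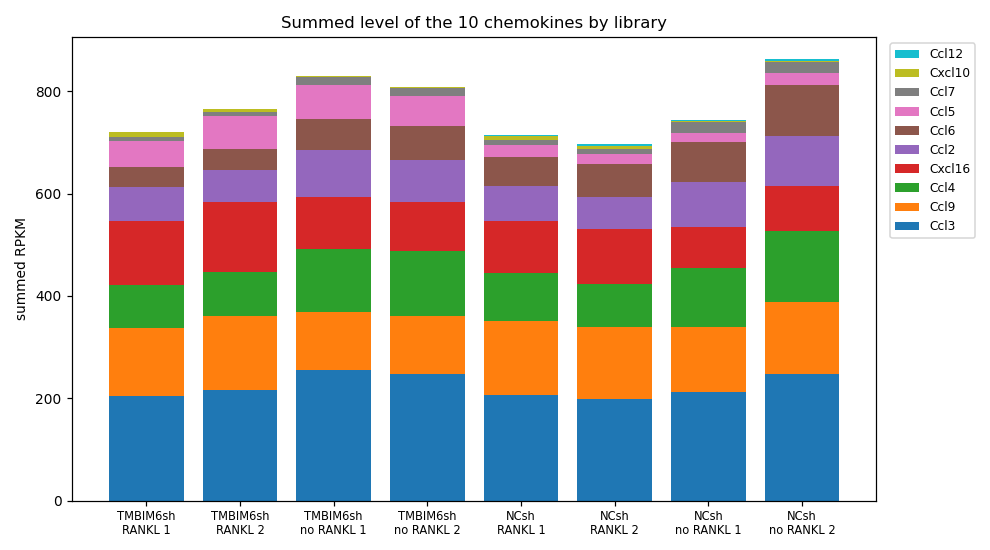
Summed level of the 10 chemokines in each library, in RPKM (y axis, from 0), stacked by gene, for the 8 libraries of the 4 groups (x axis). Ccl3, Ccl9, Ccl4 and Cxcl16 make up most of every bar, and the sums run from 696 to 862 RPKM.

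RANKL lowered the monocyte-attracting ligands Ccl2 and Ccl7, the macrophage inflammatory protein gene Ccl4 and the CCR1 ligand Ccl6, and raised Cxcl10 and Cxcl16, in libraries of both hairpins. In TMBIM6sh libraries 3 members rose (Ccl9, Cxcl10 and Cxcl16), where 8.53% of the 11040 genes tested rose, and 4 fell, where 6.89% of all genes fell. In NCsh libraries 2 members rose (Cxcl10 and Cxcl16), where 11% of all genes rose, and the same 4 fell, where 3.98% of all genes fell. These calls come from limma fitted to all genes on log2(RPKM + 1), with Benjamini-Hochberg adjustment over the genes tested and a threshold of 0.05. The median log2 difference of the 10 members was -0.20 in TMBIM6sh libraries, against 0.02 over all genes, and -0.04 in NCsh libraries, against 0.06 over all genes. With median-ratio scaling of the libraries the 1214 rises and 439 falls of all genes in NCsh libraries became 787 and 850, and Ccl3 joined the falls in both hairpin groups.

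TMBIM6sh libraries had more of the T-cell and macrophage attractant Ccl5 than NCsh libraries, at 265% of the NCsh mean with RANKL and 313% without it. They also had more Cxcl16 and less Ccl6 and Ccl12 in both RANKL states. Ccl12 passed the filter only through the NCsh libraries, where it was high, and is counted among the lower members below. With RANKL 2 members were higher in TMBIM6sh libraries, where 8.93% of all genes were, and 2 were lower, where 19.7% of all genes were. Without RANKL 2 members were higher, where 10.4% of all genes were, and 4 were lower (Ccl6, Ccl7, Ccl9 and Ccl12), where 13.8% of all genes were. The median log2 difference of the members was -0.05 with RANKL, against -0.07 over all genes, and -0.17 without RANKL, against -0.02 over all genes. With median-ratio scaling the 986 higher and 2171 lower genes with RANKL became 1608 and 1621, and the members called in the 2 hairpin comparisons were as many in each direction. The RANKL comparison of a hairpin and the hairpin comparison of a RANKL state share a pair of libraries, so their values for a member are set side by side below and are not independent.

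**Figure D2:**
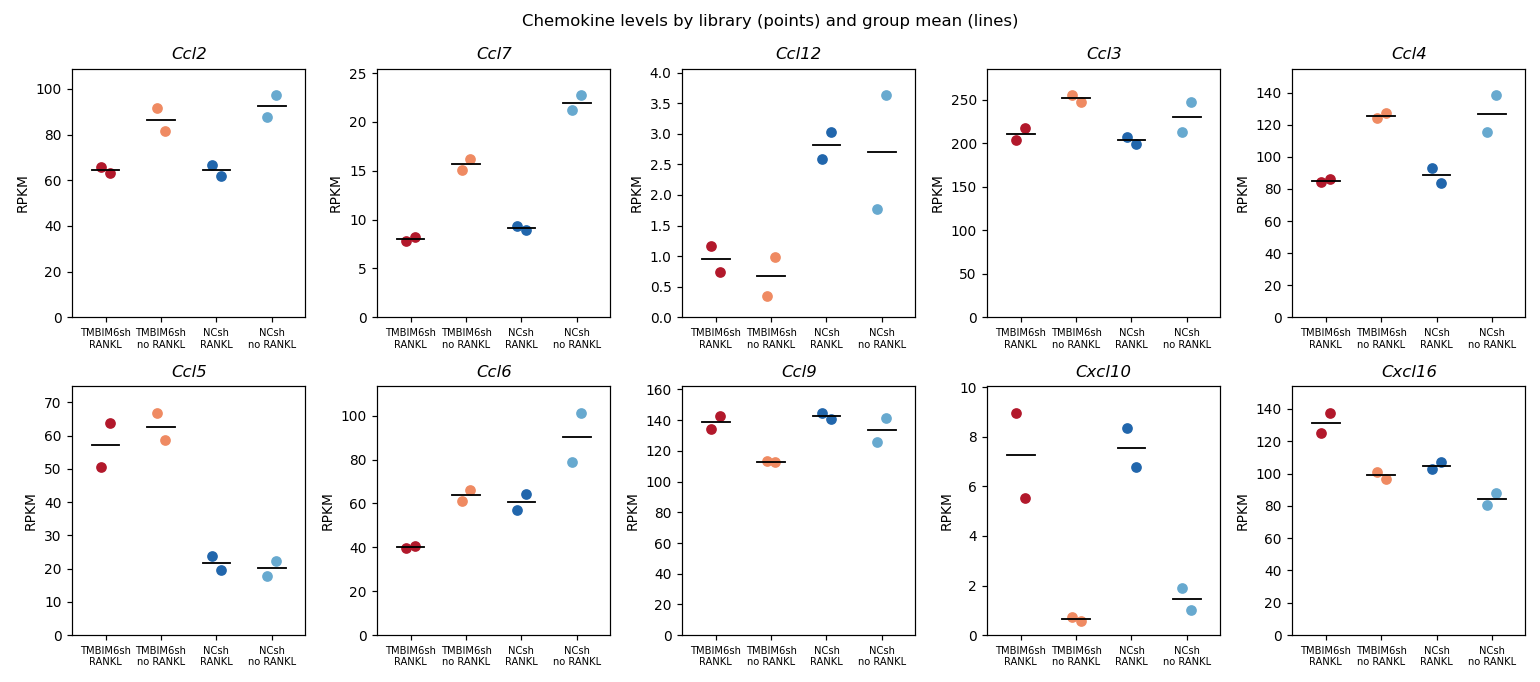
Level of each of the 10 chemokines in RPKM (y axes, from 0, a scale of its own per panel) in the 4 groups (x axes); points are libraries and lines are means of 2. Ccl5 separates by hairpin, Cxcl10 separates by RANKL, and Ccl6 is lowest in TMBIM6sh libraries with RANKL.

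Ccl2 encodes MCP-1, the main ligand of CCR2 for the recruitment of inflammatory monocytes. It stood at 65.6 and 63.1 RPKM in TMBIM6sh libraries with RANKL, against 91.7 and 81.4 RPKM in TMBIM6sh libraries without it. In NCsh libraries it stood at 66.8 and 62.0 RPKM with RANKL, against 87.9 and 97.3 RPKM without it. All 4 libraries with RANKL lay below all 4 without it, while TMBIM6sh and NCsh libraries overlapped in both RANKL states. The RANKL difference was -0.42 on the log2 scale in TMBIM6sh libraries (SE 0.0783, adjusted p = 0.00579 by limma) and -0.52 in NCsh libraries (SE 0.0783, adjusted p = 0.00235). Without TMBIM6sh no RANKL replicate 1 the first of these calls was lost, at an adjusted p of 0.0686. The hairpin difference was -0.0005 with RANKL (95% interval -0.18 to 0.18) and -0.10 without it (95% interval -0.27 to 0.08), and neither passed.

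Ccl7 encodes MCP-3, a ligand of CCR1, CCR2 and CCR3 whose gene follows Ccl2 on the chromosome. Its level was 7.84 and 8.19 RPKM in TMBIM6sh libraries with RANKL, against 15.1 and 16.2 RPKM in TMBIM6sh libraries without it. In NCsh libraries its level was 9.34 and 8.90 RPKM with RANKL, against 21.2 and 22.7 RPKM without it. The groups did not overlap in any of the 4 comparisons. With RANKL the mean was 51.2% of that without it in TMBIM6sh libraries (log2 -0.88, SE 0.0720, adjusted p = 6.56e-05 by limma) and 41.5% in NCsh libraries (log2 -1.18, SE 0.0720, adjusted p = 2.84e-05). Between hairpins it was lower with TMBIM6sh without RANKL (log2 -0.47, adjusted p = 0.00154), whereas with RANKL the difference of -0.17 did not pass (adjusted p = 0.111). These 3 calls for Ccl7 held in each of the 14 alternatives run. The difference between its responses, TMBIM6sh minus NCsh, was 0.30 on the log2 scale (95% interval 0.07 to 0.53), with an unadjusted p of 0.0159 and an adjusted p of 0.609 in limma's fit over all genes.

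Ccl12 encodes MCP-5, a further mouse ligand of CCR2. It was the least abundant member, at 1.17 and 0.737 RPKM in TMBIM6sh libraries with RANKL, 0.346 and 0.991 RPKM in TMBIM6sh libraries without it, 2.59 and 3.03 RPKM in NCsh libraries with RANKL, and 1.78 and 3.63 RPKM in NCsh libraries without it. These levels rest on 16, 10, 5 and 15 tags in the 4 TMBIM6sh libraries and on 35, 46, 25 and 55 tags in the 4 NCsh libraries, in the same order. The 95% Poisson intervals run from 0.112 to 0.807 RPKM for the lowest library and from 2.74 to 4.73 RPKM for the highest, and cover counting error only. All 4 TMBIM6sh libraries lay below all 4 NCsh libraries, and the RANKL groups overlapped within each hairpin. Of the TMBIM6sh libraries only RANKL replicate 1 reached 1 RPKM, so Ccl12 passed the filter only through the NCsh libraries, where it was high. Its hairpin tests below are therefore no independent support for a difference. The TMBIM6sh mean was 34.0% of the NCsh mean with RANKL (log2 -0.97, SE 0.254, adjusted p = 0.0185 by limma) and 24.7% without it (log2 -1.13, SE 0.254, adjusted p = 0.0106). The log2(RPKM + 1) scale understates such differences for a gene at this level. The call with RANKL was lost without TMBIM6sh RANKL replicate 2 (adjusted p = 0.119), NCsh RANKL replicate 1 (adjusted p = 0.0576) or NCsh RANKL replicate 2 (adjusted p = 0.0919). The call without RANKL was lost without TMBIM6sh no RANKL replicate 1 (adjusted p = 0.0810) or NCsh no RANKL replicate 2 (adjusted p = 0.0619). Both were also lost with no filter on low values, at adjusted p of 0.0913 with RANKL and 0.0681 without it.

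Ccl3 encodes MIP-1alpha, a ligand of CCR1. It had 204 and 217 RPKM in TMBIM6sh libraries with RANKL, against 255 and 248 RPKM in TMBIM6sh libraries without it. NCsh libraries had 207 and 199 RPKM with RANKL, against 213 and 247 RPKM without it. The RANKL groups did not overlap within either hairpin, the hairpin groups overlapped with RANKL, and both TMBIM6sh libraries lay above both NCsh libraries without it. No comparison of Ccl3 passed the threshold: the RANKL difference was -0.26 in TMBIM6sh libraries (95% interval -0.43 to -0.08, adjusted p = 0.0546 by limma) and -0.17 in NCsh libraries (95% interval -0.35 to 0.0028, adjusted p = 0.172). With median-ratio scaling both passed, at adjusted p of 0.0186 for TMBIM6sh and 0.0323 for NCsh. Without NCsh no RANKL replicate 1 the RANKL difference passed for TMBIM6sh (adjusted p = 0.00998) and for NCsh (adjusted p = 0.0243). Without NCsh no RANKL replicate 2 it passed for TMBIM6sh (adjusted p = 0.00970), as did the hairpin difference without RANKL (adjusted p = 0.0312), and the fit of the 4 TMBIM6sh libraries alone gave 0.0190.

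Ccl4 encodes MIP-1beta, an attractant of monocytes and T cells whose gene lies next to Ccl3. Its level was 84.2 and 86.2 RPKM in TMBIM6sh libraries with RANKL, against 124 and 127 RPKM in TMBIM6sh libraries without it. In NCsh libraries its level was 93.1 and 83.9 RPKM with RANKL, against 115 and 138 RPKM without it. All 4 libraries with RANKL lay below all 4 without it, and the hairpin groups overlapped in both states. The RANKL difference was -0.56 in TMBIM6sh libraries (SE 0.0870, adjusted p = 0.00227 by limma) and -0.51 in NCsh libraries (SE 0.0870, adjusted p = 0.00423). The hairpin difference was -0.05 with RANKL (95% interval -0.25 to 0.14) and -0.01 without it (95% interval -0.20 to 0.19), neither of which passed.

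Ccl5 encodes RANTES, a ligand of CCR1 and CCR3. It had 50.6 and 63.8 RPKM in TMBIM6sh libraries with RANKL, against 23.7 and 19.5 RPKM in NCsh libraries with RANKL. Without RANKL it had 66.7 and 58.6 RPKM in TMBIM6sh libraries, against 17.9 and 22.2 RPKM in NCsh libraries. Every TMBIM6sh library lay above every NCsh library, and the RANKL groups overlapped within each hairpin. The hairpin difference was 1.36 on the log2 scale with RANKL (SE 0.137, adjusted p = 0.000127 by limma) and 1.60 without it (SE 0.137, adjusted p = 6.23e-05), and both calls held in each of the 14 alternatives. The RANKL difference was -0.14 in TMBIM6sh libraries (95% interval -0.44 to 0.17) and 0.11 in NCsh libraries (95% interval -0.20 to 0.41), and neither passed. Ccl5 is also made in quantity by T and NK cells, whose 10 markers summed to at most 0.168 RPKM in any library. The part of such cells in the Ccl5 levels was not tested.

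Ccl6 encodes a CCR1 ligand of the mouse that myeloid cells make without stimulation. It had 39.5 and 40.7 RPKM in TMBIM6sh libraries with RANKL, against 61.2 and 66.2 RPKM in TMBIM6sh libraries without it. NCsh libraries had 57.0 and 64.4 RPKM with RANKL, against 79.0 and 101 RPKM without it. The groups did not overlap in any of the 4 comparisons. The RANKL difference was -0.65 in TMBIM6sh libraries (SE 0.107, adjusted p = 0.00290 by limma) and -0.55 in NCsh libraries (SE 0.107, adjusted p = 0.00825). The hairpin difference was -0.58 with RANKL (adjusted p = 0.00334) and -0.48 without it (adjusted p = 0.0101). Without NCsh RANKL replicate 1 the RANKL call in NCsh libraries was lost (adjusted p = 0.0774), and without TMBIM6sh no RANKL replicate 1 the hairpin call without RANKL was lost (adjusted p = 0.0777). With no filter on low values the same 2 calls were lost, at adjusted p of 0.0574 and 0.0594. The window shown above for Ccl6 held none of the 3 motifs.

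Ccl9 encodes MIP-1gamma, also a CCR1 ligand of the mouse, and its gene neighbours Ccl6. It had 134 and 143 RPKM in TMBIM6sh libraries with RANKL, against 113 and 113 RPKM in TMBIM6sh libraries without it. NCsh libraries had 145 and 141 RPKM with RANKL, against 126 and 141 RPKM without it. The TMBIM6sh groups did not overlap, and the NCsh groups did. RANKL raised it in TMBIM6sh libraries by 0.29 on the log2 scale (SE 0.0686, adjusted p = 0.0182 by limma), while the NCsh difference was 0.10 (95% interval -0.06 to 0.25, adjusted p = 0.376). The difference between these responses was 0.19 (95% interval -0.03 to 0.41, adjusted p = 0.657), so the 2 responses were not shown to differ. The TMBIM6sh call was lost without TMBIM6sh RANKL replicate 2 (adjusted p = 0.109), TMBIM6sh no RANKL replicate 1 (adjusted p = 0.115) or TMBIM6sh no RANKL replicate 2 (adjusted p = 0.118), and with no filter on low values (adjusted p = 0.0513). Without RANKL it was lower with TMBIM6sh by a log2 value of -0.24 (adjusted p = 0.0334), a call lost in 8 of 14 alternatives with adjusted p up to 0.154. Those 8 include leaving out TMBIM6sh no RANKL replicate 1 (adjusted p = 0.153) or 2 (0.154), NCsh RANKL replicate 1 (0.0577) or 2 (0.0576), or NCsh no RANKL replicate 2 (0.119). With RANKL the hairpin groups overlapped, with a log2 difference of -0.04 (95% interval -0.20 to 0.11).

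Cxcl10 encodes IP-10, an interferon-inducible ligand of CXCR3. It had 8.96 and 5.55 RPKM in TMBIM6sh libraries with RANKL, against 0.739 and 0.577 RPKM in TMBIM6sh libraries without it. In NCsh libraries it had 8.36 and 6.78 RPKM with RANKL, against 1.90 and 1.03 RPKM without it. These levels rest on 252 and 155 tags, 22 and 18 tags, 233 and 212 tags, and 55 and 32 tags in the same order. Every library with RANKL lay above every library without it. The mean with RANKL was 11.02 times that without it in TMBIM6sh libraries (log2 2.29, SE 0.215, adjusted p = 0.000137 by limma) and 5.18 times in NCsh libraries (log2 1.82, SE 0.215, adjusted p = 0.000775). Its responses did not differ past the threshold, with a difference of 0.47 (95% interval -0.21 to 1.15, adjusted p = 0.724). Without RANKL both TMBIM6sh libraries lay below both NCsh libraries, but the difference of -0.55 did not pass (95% interval -1.03 to -0.07, adjusted p = 0.0944). That difference passed without NCsh no RANKL replicate 2 (adjusted p = 0.0368), with a pseudocount of 0.1 (adjusted p = 0.0355) and with the replicate number as a replicate block (adjusted p = 0.0155). With RANKL the hairpin groups overlapped, with a difference of -0.08 (95% interval -0.56 to 0.40). Of the members with a RefSeq window, Cxcl10 was the one whose window held all 3 motifs.

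Cxcl16 encodes a chemokine with a membrane anchor that also acts as a scavenger receptor. It had 125 and 137 RPKM in TMBIM6sh libraries with RANKL, against 101 and 96.7 RPKM in TMBIM6sh libraries without it. In NCsh libraries it had 103 and 107 RPKM with RANKL, against 80.4 and 87.8 RPKM without it. The groups did not overlap in any of the 4 comparisons. The RANKL difference was 0.40 in TMBIM6sh libraries (SE 0.0704, adjusted p = 0.00422 by limma) and 0.32 in NCsh libraries (SE 0.0704, adjusted p = 0.0160). The hairpin difference was 0.32 with RANKL (adjusted p = 0.00863) and 0.23 without it (adjusted p = 0.0394). These values are uncertain, because tags were counted on both strands and exons of Cxcl16 overlap exons of Zmynd15 on the opposite strand. The overlap was 552 of 3021 exon bases of Cxcl16 over all its isoforms in the GENCODE annotation. The deposited entry counted 1486 exon bases, and how many of those are shared was not tested. Zmynd15 had 21.3 and 24.0 RPKM in TMBIM6sh libraries with RANKL and 18.3 and 18.1 RPKM in TMBIM6sh libraries without it. In NCsh libraries Zmynd15 had 19.9 and 18.0 RPKM with RANKL, and 14.3 and 14.7 RPKM without it. Zmynd15 was thus higher in the same direction as Cxcl16, with no overlap of groups, in all 4 comparisons, and which of the 2 genes the shared tags came from was not tested. In TMBIM6sh libraries the RANKL call was lost without TMBIM6sh no RANKL replicate 2 (adjusted p = 0.0516). In NCsh libraries it was lost without NCsh RANKL replicate 1 (adjusted p = 0.0659), NCsh RANKL replicate 2 (adjusted p = 0.106) or NCsh no RANKL replicate 1 (adjusted p = 0.0515), and with no filter on low values (adjusted p = 0.0505). The hairpin call with RANKL was lost without TMBIM6sh RANKL replicate 2 (adjusted p = 0.0609) or NCsh RANKL replicate 1 (adjusted p = 0.0731). The hairpin call without RANKL was lost in 8 of 14 alternatives, with adjusted p up to 0.223. Those 8 include leaving out TMBIM6sh no RANKL replicate 1 (adjusted p = 0.223) or 2 (0.114), NCsh RANKL replicate 1 (0.0618) or 2 (0.0618), or NCsh no RANKL replicate 1 (0.130).

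**Figure D3:**
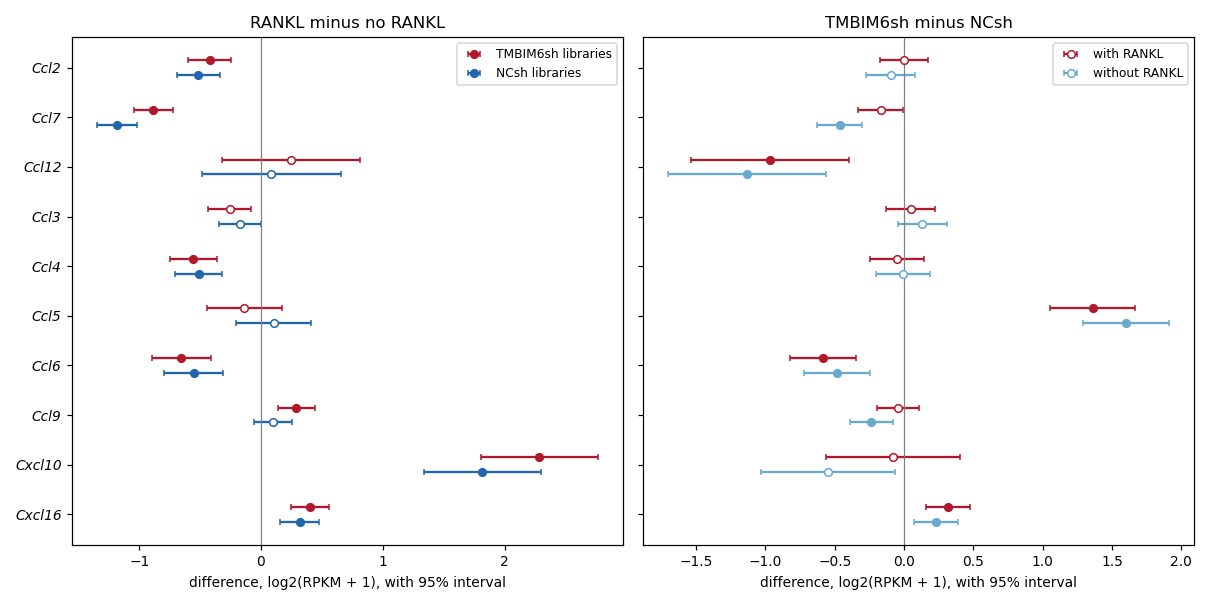
Differences in log2(RPKM + 1) with 95% intervals (x axes) for the 10 chemokines (y axis), RANKL minus no RANKL on the left and TMBIM6sh minus NCsh on the right; filled points have an adjusted p under 0.05 in limma's fit over 11040 genes. Cxcl10 lies farthest right of 0 under RANKL at 2.29 and 1.82, and Ccl5 farthest right between hairpins at 1.36 and 1.60.

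Whether RANKL acted differently under the 2 hairpins was tested directly, as the RANKL response in TMBIM6sh libraries minus that in NCsh libraries. By limma 0 of the 10 members passed at an adjusted p under 0.05. Over all 11040 genes 0.00906% passed, which is 1 gene, the small nucleolar RNA Snord104, named after its value was seen. The median difference between responses was 0.09 over the members, against -0.05 over all genes. Among the members the interval of this difference was widest for Ccl12, from -0.64 to 0.97.

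The receptors Ccr1, Ccr2, Ccr3, Cxcr3 and Cxcr6 of these ligands were scarce in the same libraries. Ccr2, which binds Ccl2, Ccl7 and Ccl12, had at most 0.443 RPKM and Cxcr6, which binds Cxcl16, at most 0.186 RPKM in any library, and both were left out of the tests as low. Ccr3, a receptor of Ccl5 and Ccl7, had 1.36 and 0.731 RPKM in TMBIM6sh libraries with RANKL, 2.55 and 2.23 RPKM in TMBIM6sh libraries without it, 0.516 and 0.449 RPKM in NCsh libraries with RANKL, and 1.25 and 1.48 RPKM in NCsh libraries without it. With RANKL only TMBIM6sh replicate 1 reached 1 RPKM, so Ccr3 passed the filter through the libraries without RANKL, where it was high. Within each hairpin both libraries with RANKL lay below both without it, and Ccr3 fell with RANKL by a log2 value of -0.75 in TMBIM6sh libraries (adjusted p = 0.0133 by limma) and -0.67 in NCsh libraries (adjusted p = 0.0237). The first of these calls was lost without TMBIM6sh RANKL replicate 2 (adjusted p = 0.0819), TMBIM6sh no RANKL replicate 1 (0.0977) or 2 (0.0522), and the other without NCsh RANKL replicate 1 (0.0904) or 2 (0.101) or NCsh no RANKL replicate 2 (0.0985). Between hairpins without RANKL Ccr3 was called higher (log2 0.52, adjusted p = 0.0449) and Ccr1, the receptor of Ccl3, Ccl5, Ccl6, Ccl7 and Ccl9, lower (log2 -0.44, adjusted p = 0.0413) with TMBIM6sh. Leaving out any 1 library of that comparison ended both calls, with adjusted p of up to 0.214 for Ccr3 and 0.194 for Ccr1, as did leaving out NCsh RANKL replicate 2, at 0.0589 for Ccr3 and 0.0504 for Ccr1; Ccr3 was also lost without NCsh RANKL replicate 1 (0.0592). Cxcr3, the receptor of Cxcl10, passed in no comparison at 1.24 to 2.90 RPKM.

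**Figure D4:**
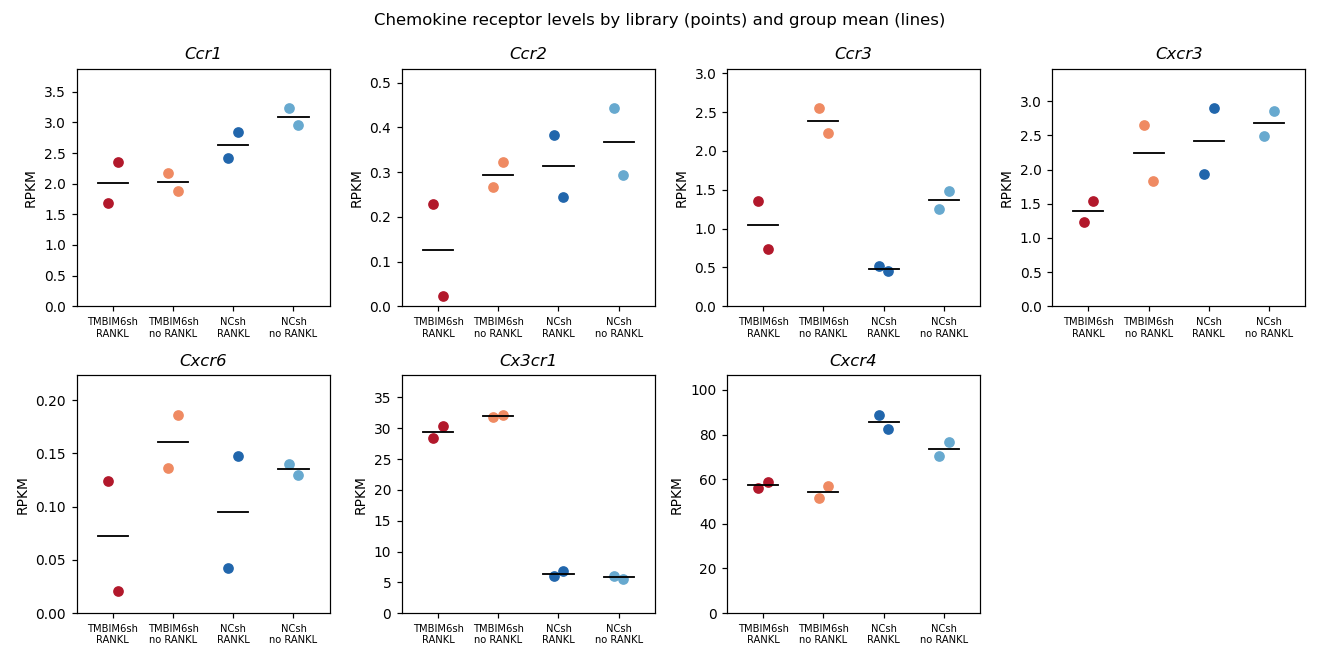
Level in RPKM (y axes, from 0, a scale of its own per panel) of 5 receptors of the member chemokines and of Cx3cr1 and Cxcr4 in the 4 groups (x axes); points are libraries and lines are means of 2. Cx3cr1 and Cxcr4 separate by hairpin, and Ccr3 is lower with RANKL within each hairpin.

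Of 17 other chemokine receptors 3 passed the filter. In each RANKL state 1 of them was called higher and 1 lower with TMBIM6sh, while 0 passed the threshold for a RANKL difference. The shares over all genes were 8.93% higher and 19.7% lower with RANKL, and 10.4% and 13.8% without it. Cx3cr1, the fractalkine receptor of macrophages and osteoclast precursors, had 28.5 and 30.4 RPKM in TMBIM6sh libraries with RANKL, against 6.00 and 6.86 RPKM in NCsh libraries with RANKL. Without RANKL it had 31.8 and 32.1 RPKM in TMBIM6sh libraries, against 6.08 and 5.51 RPKM in NCsh libraries. As with Ccl5, every TMBIM6sh library lay above every NCsh library, by a log2 value of 2.04 with RANKL (adjusted p = 1.05e-06 by limma) and 2.28 without it (adjusted p = 5.32e-07). Cxcr4, the receptor of CXCL12 that holds cells in the marrow, lay at 51.4 to 58.8 RPKM in TMBIM6sh libraries and at 70.4 to 88.7 RPKM in NCsh libraries. It was lower with TMBIM6sh by a log2 value of -0.57 with RANKL (adjusted p = 0.000507) and -0.44 without it (adjusted p = 0.00240).

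Of 28 other chemokine ligands 8 passed the filter, and 19 were under 1 RPKM in every library. Cxcl14, a ligand that attracts monocytes, fell with RANKL like Ccl2, to 11.98 and 15.03 RPKM in TMBIM6sh libraries against 26.0 and 25.3 RPKM without it, and to 12.3 and 14.6 RPKM in NCsh libraries against 23.9 and 24.0 RPKM without it. Its log2 RANKL difference was -0.89 in TMBIM6sh libraries (adjusted p = 0.000461 by limma) and -0.79 in NCsh libraries (adjusted p = 0.00127). Pf4, platelet factor 4, was higher with TMBIM6sh, at 87.9 to 107 RPKM against 46.1 to 64.6 RPKM in NCsh libraries, with a log2 difference of 0.88 with RANKL (adjusted p = 0.000539) and 0.87 without it (adjusted p = 0.000675). Platelet and megakaryocyte markers summed to at most 0.497 RPKM in any library, and the part of such cells in the Pf4 levels was not tested. Cxcl3, which attracts neutrophils, rose with RANKL in TMBIM6sh libraries (log2 0.87, adjusted p = 0.00412) but did not pass in NCsh libraries (log2 0.21, adjusted p = 0.386), at levels of 0.554 to 2.15 RPKM. Without RANKL only NCsh replicate 2 reached 1 RPKM, so Cxcl3 passed the filter through the libraries with RANKL. The difference between these Cxcl3 responses did not pass, so they were not shown to differ. Cxcl2, also a neutrophil attractant, was called lower with RANKL in TMBIM6sh libraries (log2 -0.36, adjusted p = 0.0486), a call lost in 8 of 14 alternatives and on leaving out any 1 of the 4 TMBIM6sh libraries, with adjusted p up to 0.252, or either NCsh RANKL library, at up to 0.0587. The 8 ligands had a median log2 RANKL difference of -0.10 in TMBIM6sh libraries and 0.03 in NCsh libraries, and a median hairpin difference of -0.06 with RANKL and -0.02 without it.

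Among the 10 genes of NF-kappaB subunits and inhibitors, all of them tested, 3 rose and 0 fell with RANKL in TMBIM6sh libraries, and 4 rose and 0 fell in NCsh libraries, or 3 with median-ratio scaling. The shares over all genes were 8.53% rising and 6.89% falling in TMBIM6sh libraries, and 11% and 3.98% in NCsh libraries. With TMBIM6sh 3 were higher with RANKL, where 8.93% of all genes were, and 2 without it, where 10.4% were. With TMBIM6sh 0 of the list were lower, against 19.7% of all genes with RANKL and 13.8% without it. Nfkb2, the p100 precursor of the noncanonical pathway that RANK uses, rose to 71.0 and 75.5 RPKM in TMBIM6sh libraries against 20.6 and 19.9 RPKM without RANKL, and to 64.4 and 62.8 RPKM in NCsh libraries against 20.2 and 19.7 RPKM without it. Its log2 RANKL difference was 1.80 in TMBIM6sh libraries (adjusted p = 2.93e-07 by limma) and 1.63 in NCsh libraries (adjusted p = 7.76e-07). Nfkbie, which encodes the inhibitor IkappaB-epsilon, rose by 1.15 in TMBIM6sh libraries (adjusted p = 4.32e-05) and 1.13 in NCsh libraries (adjusted p = 8.96e-05). Nfkbia, which encodes IkappaB-alpha, had 26.3 and 20.1 RPKM in TMBIM6sh libraries with RANKL and 48.9 and 19.3 RPKM in NCsh libraries with RANKL, against 12.1 to 14.8 RPKM in the 4 libraries without it. It was called in NCsh libraries (log2 1.15, adjusted p = 0.0403) but not in TMBIM6sh libraries (log2 0.69, adjusted p = 0.189), and the call was lost in 11 of 14 alternatives. For Nfkbia the difference between these responses was -0.46 and did not pass (adjusted p = 0.812 by limma). Its log2 value in NCsh libraries rests on 1 library, at 0.50 (adjusted p = 0.108) without NCsh RANKL replicate 1 and 1.79 without NCsh RANKL replicate 2. The adjusted p was 0.130 without NCsh no RANKL replicate 1, 0.0705 without NCsh no RANKL replicate 2, and 0.0564 to 0.0621 without 1 of the 4 TMBIM6sh libraries. Nfkbiz, the atypical inhibitor IkappaB-zeta, was higher with TMBIM6sh by 0.90 with RANKL (adjusted p = 2.55e-05) and 0.78 without it (adjusted p = 6.35e-05). Nfkb2 was also called higher with TMBIM6sh with RANKL (log2 0.20, adjusted p = 0.0316), a call lost without either NCsh RANKL library, TMBIM6sh RANKL replicate 2 or either TMBIM6sh no RANKL library, with adjusted p up to 0.154. The median of the list was a log2 RANKL difference of 0.22 in TMBIM6sh libraries and 0.25 in NCsh libraries.

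Of the 12 genes of interferon signalling and IRF factors 11 were tested, and Ifnb1 was listed at 0 in every library. With RANKL 2 rose and 0 fell in each hairpin group, where 8.53% of all genes rose in TMBIM6sh libraries and 11% in NCsh libraries. With TMBIM6sh 0 were higher and 7 lower with RANKL, or 1 and 2 with median-ratio scaling, and 1 was higher and 2 lower without it. The shares over all genes were 8.93% higher and 19.7% lower with RANKL, and 10.4% and 13.8% without it. Irf1, a factor induced by interferons, had 15.1 and 16.0 RPKM in TMBIM6sh libraries with RANKL, 11.5 and 11.6 RPKM in TMBIM6sh libraries without it, 15.4 and 16.9 RPKM in NCsh libraries with RANKL, and 12.5 and 13.2 RPKM in NCsh libraries without it. Every library with RANKL lay above every library without it. Irf1 rose by 0.40 in TMBIM6sh libraries (adjusted p = 0.00477 by limma) and 0.31 in NCsh libraries (adjusted p = 0.0182), the second lost without NCsh RANKL replicate 2 (adjusted p = 0.122) or NCsh no RANKL replicate 1 (adjusted p = 0.0635). Irf7, a factor for type I interferon genes, was lower with TMBIM6sh without RANKL by a log2 value of -0.41 (adjusted p = 0.00461). With RANKL the hairpin difference was -0.26 for Irf7 (adjusted p = 0.0299) and -0.34 for Irf3, a factor downstream of nucleic acid sensors (adjusted p = 0.0114). The Irf7 call with RANKL was lost without any 1 of the 4 libraries with RANKL, with adjusted p up to 0.179, and with median-ratio scaling (adjusted p = 0.0893). The Irf3 call was lost without TMBIM6sh RANKL replicate 1 (adjusted p = 0.0829) or NCsh RANKL replicate 1 (adjusted p = 0.0643).

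The 4 decay factors of cytokine mRNAs were all tested. With TMBIM6sh 3 were higher and 1 lower with RANKL, and 2 were higher and 1 lower without it. Among all genes 8.93% were higher and 19.7% lower with RANKL, and 10.4% higher and 13.8% lower without it. Zfp36l1, which binds AU-rich elements, was higher by a log2 value of 0.45 with RANKL (adjusted p = 0.00180 by limma) and 0.62 without it (adjusted p = 0.000377). Zc3h12a, the endonuclease Regnase-1, was higher by 0.37 with RANKL (adjusted p = 0.00506) and 0.34 without it (adjusted p = 0.00951), the second lost without TMBIM6sh no RANKL replicate 2 (adjusted p = 0.0889). Zfp36l2 was lower by a log2 value of -0.54 with RANKL (adjusted p = 0.000266) and -0.31 without it (adjusted p = 0.00562), the second lost without TMBIM6sh no RANKL replicate 1 (adjusted p = 0.0668). Zfp36, which encodes tristetraprolin, was called higher with RANKL (log2 0.20, adjusted p = 0.0384), a call lost without TMBIM6sh RANKL replicate 1 (adjusted p = 0.186), either NCsh RANKL library (adjusted p up to 0.223) or either TMBIM6sh no RANKL library (adjusted p up to 0.0715). With RANKL 1 of the 4 fell in TMBIM6sh libraries, Zfp36l2 (log2 -0.41, adjusted p = 0.00167), where 6.89% of all genes fell. In NCsh libraries, where 3.98% of all genes fell, 0 passed, and 3 fell with median-ratio scaling. The difference between the 2 RANKL responses of Zfp36l2 was -0.23 and did not pass (adjusted p = 0.624 by limma).

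Of 7 proteases known to shed or clip chemokines 5 were tested, and with RANKL 1 rose and 1 fell in each hairpin group. Among all genes 8.53% rose and 6.89% fell in TMBIM6sh libraries, and 11% rose and 3.98% fell in NCsh libraries. With TMBIM6sh 2 were higher and 2 lower with RANKL, or 3 and 1 with median-ratio scaling, and 2 were higher and 1 lower without it. The shares over all genes were 8.93% higher and 19.7% lower with RANKL, and 10.4% and 13.8% without it. Mmp9, a gelatinase of osteoclasts, had 69.4 and 73.4 RPKM in TMBIM6sh libraries with RANKL, 22.2 and 21.6 RPKM in TMBIM6sh libraries without it, 29.7 and 30.6 RPKM in NCsh libraries with RANKL, and 12.7 and 12.7 RPKM in NCsh libraries without it. It was higher in every library with RANKL than in those without it of the same hairpin, by a log2 value of 1.66 in TMBIM6sh libraries (adjusted p = 5.02e-07 by limma) and 1.18 in NCsh libraries (adjusted p = 8.28e-06). It was also higher with TMBIM6sh, by 1.22 with RANKL (adjusted p = 3.45e-06) and 0.74 without it (adjusted p = 4.51e-05). Mmp12, the macrophage elastase, went the other way in the 4 comparisons, lower with RANKL by a log2 value of -0.66 in TMBIM6sh libraries (adjusted p = 0.000278) and -0.47 in NCsh libraries (adjusted p = 0.00227), and lower with TMBIM6sh by -0.97 with RANKL (adjusted p = 2.45e-05) and -0.78 without it (adjusted p = 7.85e-05). Adam17, a sheddase of membrane proteins, was higher with TMBIM6sh without RANKL (log2 0.29, adjusted p = 0.00462), a call lost without TMBIM6sh no RANKL replicate 2 (adjusted p = 0.0521). Mmp14, a membrane-type metalloprotease, was called higher with TMBIM6sh with RANKL (log2 0.29, adjusted p = 0.0243), and leaving out any 1 of the 4 libraries with RANKL ended the call, with adjusted p up to 0.125.

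The 10 genes of chemokine receptor signalling were all tested. With RANKL 1 rose and 5 fell in TMBIM6sh libraries, and 1 rose and 3 fell in NCsh libraries, where median-ratio scaling gave 0 and 5. Among all genes 8.53% rose and 6.89% fell in TMBIM6sh libraries, and 11% rose and 3.98% fell in NCsh libraries. Rgs1 and Rgs2, which shorten G protein signals, fell with RANKL, Rgs1 by a log2 value of -0.69 in TMBIM6sh libraries (adjusted p = 0.000380 by limma) and -0.52 in NCsh libraries (adjusted p = 0.00237), and Rgs2 by -0.87 in TMBIM6sh libraries (adjusted p = 6.38e-05) and -0.52 in NCsh libraries (adjusted p = 0.00133). Rgs1 was also lower with TMBIM6sh, at 17.2 and 17.1 RPKM against 32.6 and 31.3 RPKM in NCsh libraries with RANKL, and at 27.1 and 29.3 RPKM against 42.8 and 49.8 RPKM without it. Gnai2, the inhibitory G protein subunit that chemokine receptors couple to, was higher with TMBIM6sh by 0.67 both with RANKL (adjusted p = 0.000126) and without it (adjusted p = 0.000149). Rgs10 was called lower with RANKL by a log2 value of -0.48 in TMBIM6sh libraries (adjusted p = 0.0186) and -0.50 in NCsh libraries (adjusted p = 0.0176). The first call was lost on leaving out any 1 of the 4 TMBIM6sh libraries, with adjusted p up to 0.126, and the second without NCsh RANKL replicate 2 (adjusted p = 0.111). The Rgs2 level was also lower with TMBIM6sh, by a log2 value of -0.60 with RANKL (adjusted p = 0.000288) and -0.25 without it (adjusted p = 0.0280), the second lost without either TMBIM6sh no RANKL library or NCsh no RANKL replicate 2, with adjusted p up to 0.166. Over the list 2 were higher and 4 lower with TMBIM6sh with RANKL, or 3 and 2 with median-ratio scaling, and 3 were higher and 3 lower without it. The shares over all genes were 8.93% higher and 19.7% lower with RANKL, and 10.4% and 13.8% without it.

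The macrophage markers moved as well: 5 of 9 fell and 0 rose with RANKL in each hairpin group, where 6.89% of all genes fell in TMBIM6sh libraries and 3.98% in NCsh libraries. With median-ratio scaling 6 fell in TMBIM6sh libraries and 7 in NCsh libraries. Without that scaling the list had a median log2 difference of -0.27 in TMBIM6sh libraries and -0.32 in NCsh libraries, against 0.02 and 0.06 over all genes. Between hairpins 3 were lower with TMBIM6sh with RANKL, where 19.7% of all genes were, and 1 without it, where 13.8% of all genes were. In these bulk libraries fewer cells of a type and less RNA per cell cannot be told apart, and the part of the macrophage markers in the falls of Ccl2, Ccl4, Ccl6 and Ccl7 was not tested.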

How the data were processed

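RNA was sequenced in 8 libraries of 4 groups of 2, assigned from the sample titles, since all samples carry the same treatment text. Per the file headers the authors counted tags over exons on both strands with HOMER's analyzeRepeats (mm10), condensed isoforms to 1 entry per gene and deposited RPKM values, although the column heads say FPKM. HISAT2 and DESeq2 are named too, with no version, in the submitters' processing notes. RPKM values are not counts, so no count test was run.

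limma 3.58.1 in R 4.3.3 was fitted to log2(RPKM + 1) of all 8 libraries, with 1 mean per group, an intensity trend, 4 residual and 5.54 prior degrees of freedom (median), no replicate block, and the 11040 genes that reached 1 RPKM in 2 or more libraries. P-values were Benjamini-Hochberg adjusted over these genes, with a threshold of 0.05. The smallest permutation p for 2 libraries against 2 is 0.333, so none was run. Intervals of differences are 95% from the fit. A fold on this scale understates the change of low genes. The fit was tested on simulated data.

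The 10 members, the gene lists and the tests were chosen with earlier results of these data known. All members were described, and from each pathway list the genes called in a comparison, at most 4 by the largest log2 value; some genes that this rule names are not reported here. The 14 alternatives were a pseudocount of 0.1, no filter, median-ratio scaling, a replicate block, no intensity trend, leaving out each of the 8 libraries, and a fit of the 4 libraries of a comparison. Depth was recovered from the step of 1 tag, at which 100% of 2895 to 3204 values per library came out whole within 0.1 tags; 83.7% to 86.6% of tags lay in exons. Of 50-base words of member transcripts, 16.9% of Cxcl16 also lay in Zmynd15, 3.59% of Cxcl10 in Art3 (at most 0.107 RPKM), 1.97% of Ccl9 in other genes, and none of the other 7 members. Ccl6 overlaps the locus but no exon of E230016K23Rik. Python 3.11.15, numpy 2.4.6, pandas 2.3.3, scipy 1.17.1 and matplotlib 3.10.9 were used.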

Additional observations from a re-analysis of the deposited data

How the results depend on the processing

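Of the 23 calls made for members, 12 held in each of the 14 alternatives run: Ccl4, Ccl7 and Cxcl10 under RANKL in both hairpin groups, Ccl6 under RANKL in TMBIM6sh libraries and Ccl2 in NCsh libraries, and between hairpins Ccl5 in both states, Ccl6 with RANKL and Ccl7 without it. The other 11 were lost in at least 1, and 4 of the 27 differences not called passed in at least 1. No call of a member changed sign. The labels give no pairing of the replicate numbers. Deviations of replicate 1 from its group mean correlated across genes at -0.0651 to 0.0625 between groups, which cannot settle whether the numbers mark pairs. A replicate block gave 1670 genes and 7 members under RANKL in TMBIM6sh libraries, and 1608 genes and 6 members in NCsh libraries. Between hairpins the block gave 3128 genes and 4 members with RANKL, and 2654 genes and 7 members without it. Of 63 calls for named genes of the lists, 43 held in each alternative and 0 changed sign.

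Leaving out 1 library gave 846 to 2055 genes called under RANKL in TMBIM6sh libraries (1703 as reported), 709 to 1523 in NCsh libraries (1653), 1884 to 3561 between hairpins with RANKL (3157) and 1420 to 2527 without it (2673). Members called ran from 2 to 4 between hairpins with RANKL (4) and from 2 to 6 without it (6), and the difference of responses gave 0 to 2 genes. A fit of its own 4 libraries gave 1094 genes for RANKL in NCsh libraries. With no filter 2 members were called between hairpins without RANKL and 8 genes for the difference of responses, which gave 2 without the intensity trend. Fits of fewer libraries leave fewer degrees of freedom for the error, yet some of them called more genes than reported. What moved these counts was not tested.

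Differences that were not called changed sign. With median-ratio scaling these were Ccl2 (0.0778), Ccl4 (0.0265) and Ccl9 (0.0355) between hairpins with RANKL, Ccl4 without RANKL (0.0135) and Ccl4 in the difference of responses (0.013). Leaving out 1 library gave log2 values under RANKL in TMBIM6sh libraries of -0.3014 to 0.0281 for Ccl5 and -0.0357 to 0.5291 for Ccl12, and in NCsh libraries of -0.0432 to 0.2536 for Ccl5 and -0.28 to 0.45 for Ccl12. Between hairpins with RANKL it gave -0.0545 to 0.0535 for Ccl2, -0.1268 to 0.0225 for Ccl4, -0.0884 to 0.0015 for Ccl9 and -0.38 to 0.22 for Cxcl10, and without RANKL -0.14 to 0.12 for Ccl4. The difference of responses ran from -0.1922 to 0.0234 for Ccl3, -0.1739 to 0.0868 for Ccl4, -0.2769 to 0.0747 for Ccl6 and -0.21 to 0.53 for Ccl12. Depth limits Ccl12 and, without RANKL, Cxcl10, whose levels rest on few tags.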

Other observations

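For the 4 members with a log2 value of at least 1 in a comparison, the 3 tested genes with the most similar group means were found, by the root mean square difference of log2(RPKM + 1) group means, each centred over the 4 groups. The likeness is a description over 4 groups that share their libraries. For Ccl5 they were Camk1d (0.14), Igf2bp2 (0.15) and Gpr31b (0.15); Camk1d averaged 18.8 RPKM in TMBIM6sh libraries with RANKL, 16.5 in TMBIM6sh libraries without it, 6.81 in NCsh libraries with RANKL and 6.01 in NCsh libraries without it. For Ccl7 they were H2-Q2 (0.10), Gm19705 (0.13) and Gas6 (0.13); Gas6, a ligand of the TAM receptors with which macrophages take up dead cells, averaged 19.4 and 42.1 RPKM in TMBIM6sh libraries with and without RANKL, and 24.3 and 46.0 RPKM in NCsh libraries with and without it. For Ccl12, at under 4 RPKM, they were Slc6a12 (0.03), Lilra6 (0.05) and Bhlhe40 (0.06). For Cxcl10 they were Il2rg (0.12), Gpr132 (0.17) and C3 (0.24). C3, the central complement component, averaged 55.8 and 8.27 RPKM in TMBIM6sh libraries with and without RANKL, and 44.9 and 9.60 RPKM in NCsh libraries with and without it. Il2rg averaged 84.4 and 21.0 RPKM in TMBIM6sh libraries with and without RANKL, where Cxcl10 averaged 7.25 and 0.658 RPKM. The log2(RPKM + 1) scale understates changes of low genes such as Cxcl10 and Ccl12, so likeness on it is not likeness in fold.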
